A study of Homo sapiens with 4 samples.

Results

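The CCN proteins and YAP target genes examined here were the probe sets of 10 genes, CCN1, CCN2, ANKRD1, AMOTL1, AMOTL2, LATS2, YAP1, WWTR1, TEAD1 and TEAD4. They were chosen by name, as all probe sets with 1 of these genes as their only symbol, and came to 24 of the 41091 probe sets with 1 gene symbol, or 10 of 19775 genes. RNA of CL1-5 and CL1-0 cells, lung adenocarcinoma lines labelled as type II alveolar in cell type, was read on Affymetrix arrays, on which a probe set is a small group of oligonucleotides for 1 transcript. CL1-5 was selected from CL1-0 for invasiveness. The 4 groups were CL1-5 with an AK4 shRNA vector, CL1-5 with a non-silencing shRNA vector, CL1-0 with an AK4 vector and CL1-0 with a control vector. AK4 is a mitochondrial adenylate kinase. All 4 were stably transduced cells under puromycin selection, and the 2 lines differ in the type of vector as well as in origin. Each group was 1 array, so no value has a replicate error, no test could be run, and precision is limited by how few arrays there were. Levels are scaled signals, intensities brought to a common trimmed mean, and a signal of 6.94 was taken as the floor under which values have no order. A gene is read from its brightest probe set, and a change of at least 2-fold is used as a call of size.

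YAP1 and its paralogue WWTR1, also called TAZ, are transcriptional coactivators that do not bind DNA themselves. They work through TEAD transcription factors, here TEAD1 and TEAD4, which recognise the sequence CATTCC. The Hippo kinases LATS1 and LATS2 phosphorylate YAP1 and WWTR1 and keep them in the cytoplasm, and the angiomotins, AMOTL1 and AMOTL2 among them, bind them at cell junctions. CCN1 and CCN2, secreted matricellular proteins formerly named CYR61 and CTGF, and ANKRD1, a nuclear ankyrin repeat protein, are the most used readouts of YAP activity. AMOTL2 and LATS2 are themselves induced by YAP and act as negative feedback.

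The promoters of the members with TEAD letters are shown because CCN2 gave the largest difference among the members. RefSeq promoters of build GRCh38.p14 were matched for 7 of the 10 genes, in 9 windows, and CCN1, TEAD1 and TEAD4 were not matched. Within the 250 bases before the start, CATTCC or its reverse complement GGAATG was present in 4 of the 9 windows, those of CCN2, ANKRD1, YAP1 and 1 of the windows of AMOTL2. It was present in 11.9% of all 35116 promoter windows of that length. CCN2 held it 3 times, beginning 169, 104 and 95 bases before the start, and 0.083% of all windows held it at least 3 times. ANKRD1 held it beginning 220 and 128 bases before the start, and 0.94% of all windows held it at least 2 times. The AP-1 motif TGANTCA was searched in the same way and was in 1 of the 9 windows, that of ANKRD1, where it overlaps neither TEAD match, against 6.57% of all windows. A match describes letters and is not a binding site. The windows below are written 5' to 3' with CATTCC or GGAATG in capitals. CCN2 is at chr6:131951373-131951622 on the minus strand and ANKRD1 at chr10:90921088-90921337 on the minus strand, each the 250 bases before the start. YAP1 at chr11:102110273-102110302 on the plus strand and AMOTL2 at chr3:134374499-134374528 on the minus strand are given as 30 bases around the motif.
CCN2: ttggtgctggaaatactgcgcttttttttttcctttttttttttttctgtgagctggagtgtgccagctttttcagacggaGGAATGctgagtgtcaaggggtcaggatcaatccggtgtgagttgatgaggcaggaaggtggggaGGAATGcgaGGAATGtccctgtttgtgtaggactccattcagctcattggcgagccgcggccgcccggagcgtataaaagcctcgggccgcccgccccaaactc
ANKRD1: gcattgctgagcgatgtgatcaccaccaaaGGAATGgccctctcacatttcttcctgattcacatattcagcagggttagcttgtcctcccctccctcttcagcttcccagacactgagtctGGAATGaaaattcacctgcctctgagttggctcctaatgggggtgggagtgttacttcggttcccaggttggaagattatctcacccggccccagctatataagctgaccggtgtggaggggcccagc
YAP1: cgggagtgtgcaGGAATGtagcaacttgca
AMOTL2: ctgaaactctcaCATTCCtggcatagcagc

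The AK4 signal checks the labels. AK4 probe set 204348_s_at had a signal of 442 with AK4 shRNA and 1056 with non-silencing shRNA in CL1-5, and of 111 with AK4 vector and 115 with control vector in CL1-0. The knockdown was thus seen and the overexpression was not, and directions from the CL1-0 pair rest on the label. Over all AK4 probe sets, log2 ratios with AK4 vector ran from -0.25 on 225342_at to -0.05 on 204348_s_at. Whether these probe sets read the AK4 insert of the vector is not known. The BioB hybridisation controls, spiked in before hybridisation, averaged 307 on the array labelled AK4 vector and 783 on the control vector array, against 99.1 and 106 on the CL1-5 AK4 shRNA and non-silencing arrays. The beta-actin 3' to 5' ratio, which grows with RNA degradation, was 1.61 and 1.34 on the CL1-5 AK4 shRNA and non-silencing arrays, and 6.54 and 6.04 on the CL1-0 AK4 vector and control arrays. Spearman's rank correlation across probe sets was 0.990 within CL1-5 and 0.966 within CL1-0. Of the alveolar type II markers, 8 of 10 had a probe set, and their summed signal was 133 and 137 on the CL1-5 AK4 shRNA and non-silencing arrays, and 347 and 401 on the CL1-0 AK4 vector and control arrays. LAMP3 carried most of that difference, with 4.66 and 5.08 in CL1-5 and 160 and 210 in CL1-0, while NAPSA ran the other way, with 19.2 and 19.6 in CL1-5 and 8.99 and 9.49 in CL1-0, and SLC34A2 lay under the floor on all 4 arrays. The 5 epithelial markers summed to 1758 and 1997 in CL1-5 and to 43.6 and 36.9 in CL1-0, the AK4 array of each line given first. Keratin KRT18 was 138-fold and KRT8 24.9-fold higher in the CL1-5 control than in the CL1-0 control. EPCAM and CDH1 lay under the floor in CL1-5 on the probe sets read for them. CDH1 probe set 201130_s_at had 7.33 on the CL1-5 non-silencing array, just above the floor. The 4 endothelial markers summed to 72.4 and 64.9 in CL1-5 and to 23.4 and 25.2 in CL1-0 in that order, mainly through PECAM1. The 6 fibroblast markers summed to 103 and 125 in CL1-5 and to 87.5 and 88.0 in CL1-0. The 3 leukocyte markers summed to 13.5 and 16.5 in CL1-5 and to 14.4 and 15.1 in CL1-0, with CD3E just above the floor and PTPRC under it on all 4. Deposited values were identical for 4502 probe sets on the 2 CL1-0 arrays and for 3287 on the 2 CL1-5 arrays, and for 0 between lines. The part of these values in the results below was not tested.

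**Figure D1:**
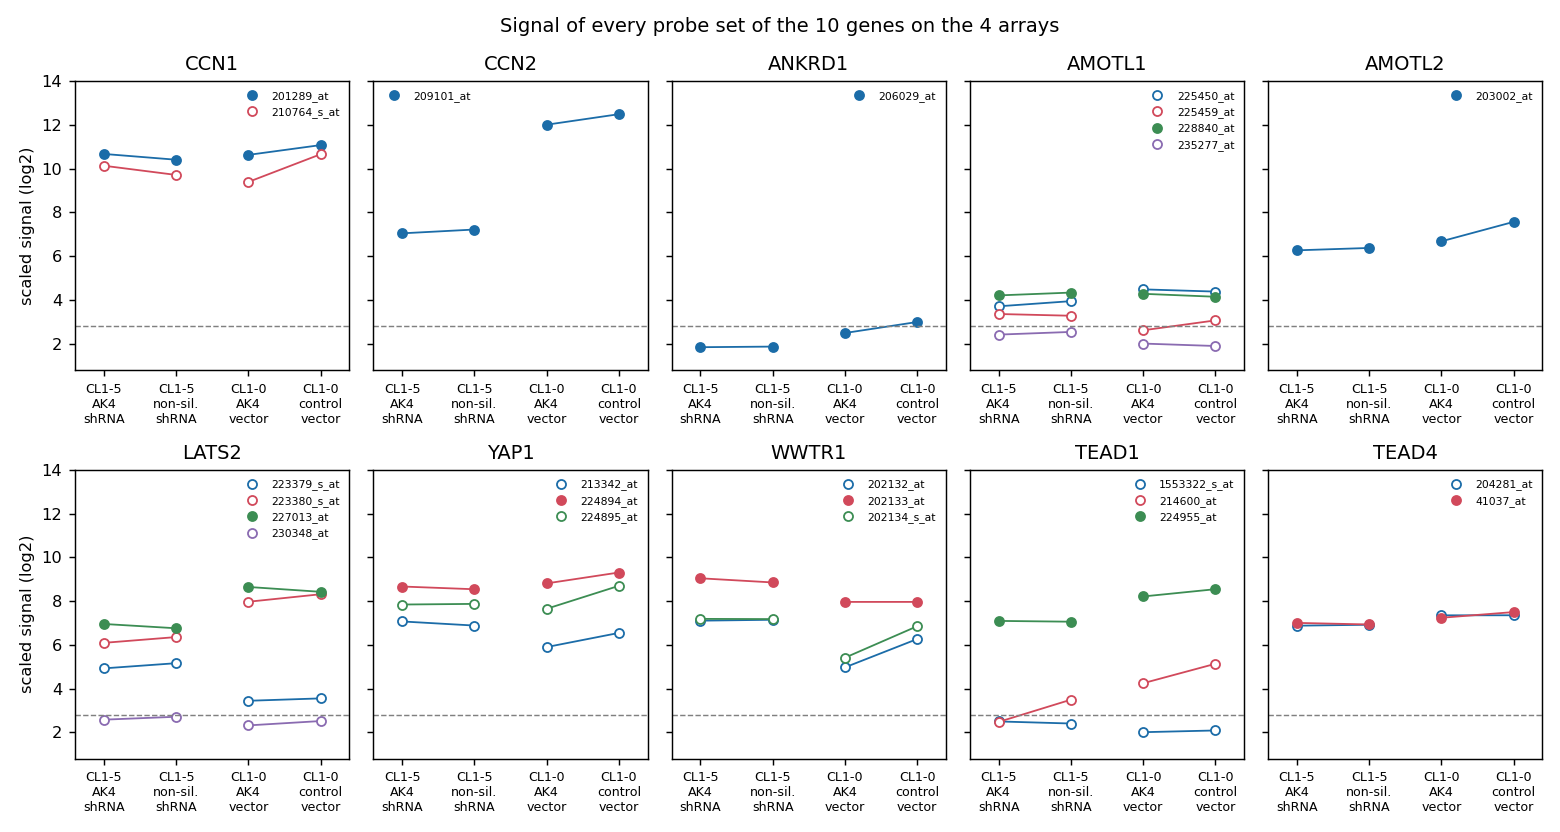
Scaled signal on the log2 scale of all 24 probe sets of the 10 genes on the 4 arrays, 1 point per array, with lines joining the 2 arrays of a line and the dashed line at the floor. Filled points mark the probe set read for the gene, and CCN2 stands at signals of 132 and 149 in CL1-5 and of 4109 and 5733 in CL1-0, whereas CCN1 lies between 671 and 2155 on all arrays.

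In CL1-0, the comparison asks how these genes differ between cells labelled AK4 vector and control vector, where a higher AK4 signal was not seen. Most of them were dimmer with AK4 vector, by less than 2-fold on the probe set read for the gene. In bulk RNA, fewer expressing cells and less RNA per cell cannot be told apart. Of the 10 genes, 8 were below 0 and the median log2 ratio was -0.30, beside a median of 0.05 and 43.9% below 0 over 14677 measured genes. The 8 include WWTR1 at -0.0003 and ANKRD1, whose ratio was set by the floor. None of the 10 was at least 2-fold lower, where 1.17% of all genes were, and none was at least 2-fold higher, where 3.22% of all genes were. At the level of probe sets, 4 of the 21 measured ones were at least 2-fold lower, against 1.72% of all 27394, and 0 were at least 2-fold higher, against 3.15%. These 4 were 1 of CCN1, 1 of YAP1 and 2 of WWTR1.

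Among the secreted targets, CCN1 was lower on both of its probe sets. Probe set 201289_at had a signal of 1580 with AK4 vector and 2155 with control vector, a log2 ratio of -0.45. Probe set 210764_s_at had 671 with AK4 vector and 1613 with control vector, a log2 ratio of -1.26, so the 2 readings of CCN1 had the same direction and differed in size by 0.82. CCN2, read by 209101_at, had 4109 with AK4 vector and 5733 with control vector, a log2 ratio of -0.48. CCN1 and CCN2 thus had nearly the same ratio on the probe sets read for them, with a difference of 0.03. ANKRD1 had a signal of 5.61 with AK4 vector, under the floor, and 7.95 with control vector, just above it, so no size can be given for this target.

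The feedback genes of the pathway split. AMOTL2, which sequesters YAP and is also its target, had 102 with AK4 vector and 189 with control vector. Its log2 ratio of -0.89 was the lowest among the probe sets read for the 10 genes, and 1.81% of all genes had a lower one. LATS2, the kinase that restrains YAP, had 400 with AK4 vector and 343 with control vector on 227013_at, a log2 ratio of 0.22. Its probe set 223380_s_at gave 250 with AK4 vector and 318 with control vector, a log2 ratio of -0.34. The dim probe set 223379_s_at was at -0.11, so the readings of LATS2 differ in sign. AMOTL1, the other angiomotin-like protein, was dim, with 19.4 with AK4 vector and 17.7 with control vector on 228840_at. Its 3 measured probe sets ran from -0.27 to 0.13, on both sides of 0.

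The coactivators were lower on most of their probe sets. YAP1 had 448 with AK4 vector and 632 with control vector on 224894_at, a log2 ratio of -0.50. The other YAP1 probe sets had 200 against 414 on 224895_at, a ratio of -1.05, and 59.6 against 93.3 on 213342_at, a ratio of -0.65, each with AK4 vector given first. All 3 readings of YAP1 were thus on the same side. WWTR1 was not uniform. Its brightest probe set 202133_at had 249 on each array, a log2 ratio of -0.0003. Probe set 202132_at had 31.3 with AK4 vector and 76.8 with control vector, a ratio of -1.29. Probe set 202134_s_at had 42.5 with AK4 vector and 115 with control vector, a ratio of -1.44, so the choice of probe set decides whether WWTR1 differs at all. The range between its probe sets was 1.44. The SD of ratios among probe sets that share a gene, pooled over genes, was 0.41; it is a scatter within these arrays and not a replicate error.

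The DNA-binding partners were also on the lower side. TEAD1 had 296 with AK4 vector and 373 with control vector on 224955_at, a log2 ratio of -0.33, and 19.0 with AK4 vector and 35.1 with control vector on 214600_at, a ratio of -0.89. TEAD4 had 151 with AK4 vector and 181 with control vector on 41037_at, a ratio of -0.26, and 163 on each array on 204281_at, a ratio of -0.0027. When each gene was averaged over its probe sets instead, all 10 genes were below 0, LATS2 and AMOTL1 included, and their median was -0.44. On the probe sets read for them, CCN1, CCN2 and YAP1 differed by little more than that SD and AMOTL2 by more, and the other members by less.

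In CL1-5, the comparison asks how the genes differ when AK4 is silenced. The members lay close together on these arrays with probe set ratios between -0.70 and 0.42. Of 9 measured genes, 6 were above 0 and 3 below, with a median log2 ratio of 0.07 (-0.07 when averaged over probe sets), beside a median of -0.0014 and 50.3% below 0 over 15314 genes. Of all genes, 0.0914% passed 2-fold upwards and 0.0131% downwards, so a count of 0 among 9 is near the background.

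CCN1 stood highest of the members. Probe set 201289_at had 1628 with AK4 shRNA and 1355 with non-silencing shRNA, a log2 ratio of 0.26, and 10.4% of all genes had a higher one. Probe set 210764_s_at had 1120 with AK4 shRNA and 837 with non-silencing shRNA, a ratio of 0.42, so both CCN1 readings lay above the pooled SD, 0.22 in this comparison. CCN2, in contrast to CCN1, had 132 with AK4 shRNA and 149 with non-silencing shRNA, a ratio of -0.17, and ANKRD1 lay under the floor on both arrays.

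The remaining members had ratios smaller than that SD on the probe sets read for them. LATS2 had 124 with AK4 shRNA and 108 with non-silencing shRNA on 227013_at, a ratio of 0.20, while 223380_s_at had 68.2 and 81.9 in the same order, a ratio of -0.26. The LATS2 probe sets thus differed in sign as they did in CL1-0, with 227013_at above 0 and 223380_s_at below it in each line. AMOTL2 had 76.9 with AK4 shRNA and 82.9 with non-silencing shRNA, a ratio of -0.11, and AMOTL1 had 18.5 and 20.2 on 228840_at in the same order, a ratio of -0.13. YAP1 had 406 with AK4 shRNA and 372 with non-silencing shRNA, a ratio of 0.13 (0.125), and WWTR1 526 and 462 in the same order, a ratio of 0.19. TEAD1 had 137 with AK4 shRNA and 133 with non-silencing shRNA on 224955_at, a ratio of 0.04. Its dim probe set 214600_at had 5.58 with AK4 shRNA, under the floor, and 11.3 with non-silencing shRNA, a ratio of -0.70 set by the floor. TEAD4 had 128 with AK4 shRNA and 122 with non-silencing shRNA on 41037_at, a ratio of 0.07.

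**Figure D2:**
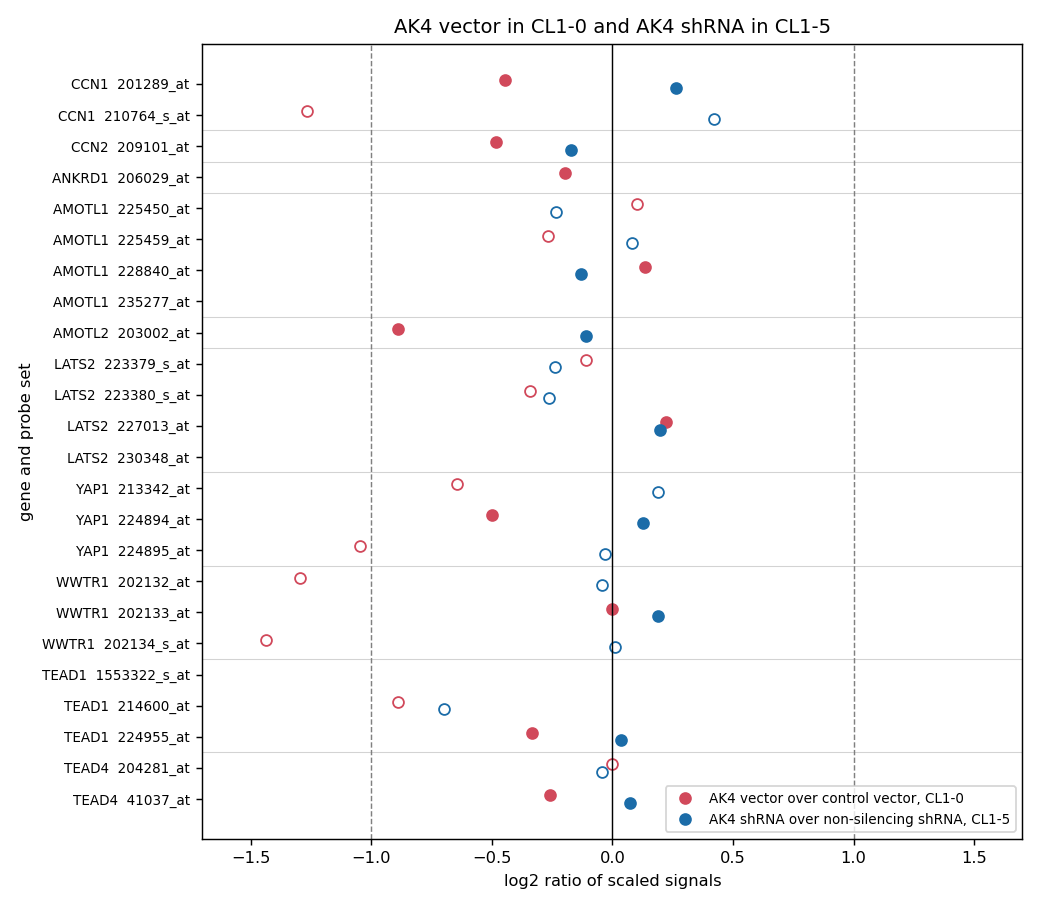
Log2 ratios of every measured probe set of the 10 genes for AK4 vector over control vector in CL1-0 (red) and AK4 shRNA over non-silencing shRNA in CL1-5 (blue), with filled points for the probe set read for the gene and dashed lines at 2-fold. The red points reach -1.44 and are mostly left of 0, and the blue points lie between -0.70 and 0.42.

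The AK4 comparisons share no array, so signs can be set side by side. Of 9 genes measured in both, 5 were lower with AK4 vector and higher with AK4 shRNA, namely CCN1, YAP1, WWTR1, TEAD1 and TEAD4, with WWTR1 at -0.0003 in CL1-0. Of 13735 genes measured in both, 20.3% had these signs. AMOTL1 had the opposite signs, as did 25.8% of all genes. Of the 5 genes, only CCN1 was above 0 on all its measured probe sets in CL1-5. There YAP1 was at -0.03 on 224895_at, WWTR1 at -0.04 on 202132_at and TEAD4 at -0.04 on 204281_at. TEAD1 was at -0.70 on 214600_at, a value set by the floor. CCN2 and AMOTL2 were below 0 in both lines, as were 23.6% of all genes. LATS2 was above 0 in both on 227013_at, as were 30.4% of all genes, and below 0 in both on its other measured probe sets. Averaged over probe sets, LATS2 instead gave -0.06 for AK4 vector and -0.08 for AK4 shRNA, and TEAD1 was at -0.22 in CL1-5. On both CCN1 probe sets the ratio in CL1-0 lay below that in CL1-5, with CL1-0 minus CL1-5 at -0.71 on 201289_at and -1.69 on 210764_s_at. Of these 4 CCN1 ratios, the one of 210764_s_at in CL1-0 passed 2-fold, and the differences between lines were not tested.

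The control arrays were compared to describe the lines given the AK4 shRNA and the AK4 vector. CCN2 separated them most, with a signal of 149 in CL1-5 with non-silencing shRNA and 5733 in CL1-0 with control vector. This is a log2 ratio of -5.27, or 38.6-fold lower in CL1-5, and 36 of 15969 measured genes had a lower ratio. The AK4 shRNA array of CL1-5 was at 132 and the AK4 vector array of CL1-0 at 4109. CCN1, its close relative, had 1355 in CL1-5 and 2155 in CL1-0, a ratio of -0.67 on 201289_at, and -0.95 on 210764_s_at. The ratio of CCN2 was 4.60 below that of CCN1 on the log2 scale, a difference that scaling an array by a constant does not alter, while CCN1 itself was at 0.20 without rescaling.

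In all, 4 of the 10 genes were at least 2-fold lower in CL1-5, against 14.2% of all genes, and 0 were at least 2-fold higher, against 17.1%. The 4 were CCN2, LATS2, TEAD1 and AMOTL2. Without rescaling only CCN2 of 9 measured members passed 2-fold downwards, with LATS2 at -0.80, TEAD1 at -0.61 and AMOTL2 at -0.32. WWTR1 at 1.76 and AMOTL1 at 1.06 then passed upwards. Of 16768 genes measured without rescaling, 7223 passed upwards and 771 downwards. With a common median 7 members passed downwards, beside 3902 of 15934 measured genes. The members' median log2 ratio was -0.72 (0.11 without rescaling, where the median of all genes was 0.83), beside 0.13 over all genes, and 8 of 10 were below 0, beside 44.0% of all genes. By probe set, 6 of 21 were at least 2-fold lower, against 12.1% of all, and 1 of 21 at least 2-fold higher, against 21.1%. The pooled SD was 0.85 here, so of the members only CCN2, LATS2, TEAD1, AMOTL2 and WWTR1 differed by more than this scatter.

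LATS2 had 108 in CL1-5 and 343 in CL1-0 on 227013_at, a ratio of -1.67, and 81.9 and 318 in the same order on 223380_s_at, a ratio of -1.96. Its other measured probe set, 223379_s_at, had 35.8 in CL1-5 and 11.7 in CL1-0, a ratio of 1.61, against the others. TEAD1 had 133 in CL1-5 and 373 in CL1-0 on 224955_at, a ratio of -1.48, and 214600_at gave -1.64, so both readings of this factor were at least 2-fold lower. AMOTL2 had 82.9 in CL1-5 and 189 in CL1-0, a ratio of -1.19. The other angiomotin-like gene, AMOTL1, had 20.2 in CL1-5 and 17.7 in CL1-0, a ratio of 0.19 that fell below 0 under 5 of 9 alternatives (-0.30 with arrays scaled to a common median).

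The coactivators stood on opposite sides. YAP1 had 372 in CL1-5 and 632 in CL1-0 on 224894_at, a ratio of -0.77, or 0.11 without rescaling. WWTR1 had 462 in CL1-5 and 249 in CL1-0, a ratio of 0.89, and its 3 probe sets ran from 0.33 to 0.89. The ratio of YAP1 was thus 1.65 below that of WWTR1 on the probe sets read for them, but YAP1 probe set 213342_at was at 0.34, about equal to the lowest of WWTR1. TEAD4 had 122 in CL1-5 and 181 in CL1-0, a ratio of -0.57 (0.30 without rescaling). ANKRD1 had 3.65 in CL1-5, under the floor, and 7.95 in CL1-0, so this YAP readout was at or near the floor in all 4 cultures.

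**Figure D3:**
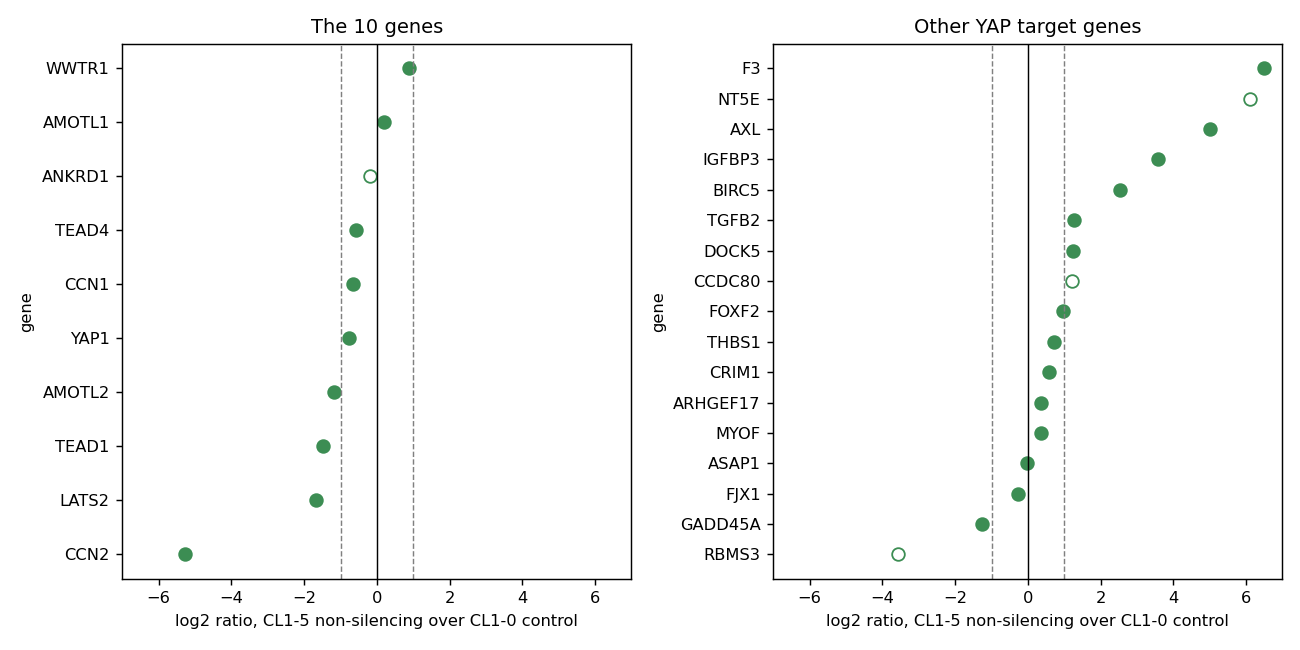
Log2 ratio of CL1-5 with non-silencing shRNA over CL1-0 with control vector for the 10 genes (left) and for 17 other YAP target genes (right), 1 point per gene, open where only 1 array lay above the floor, with dashed lines at 2-fold. CCN2 lies at -5.27 on the left, and F3, NT5E and AXL lie at 6.50, 6.12 and 5.02 on the right; without rescaling CCN1, YAP1 and TEAD4 move to the right of 0, and with arrays scaled to a common median AMOTL1 moves to the left of it.

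Of the 10 genes, 7 had their highest signal on the CL1-0 control vector array, against 22.3% of 16256 genes. These were CCN1, CCN2, ANKRD1, AMOTL2, YAP1, TEAD1 and TEAD4. That 1 array enters both the vector comparison and the comparison of the lines, so the ratios below 0 in the 2 comparisons are not independent of each other.

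**Figure D4:**
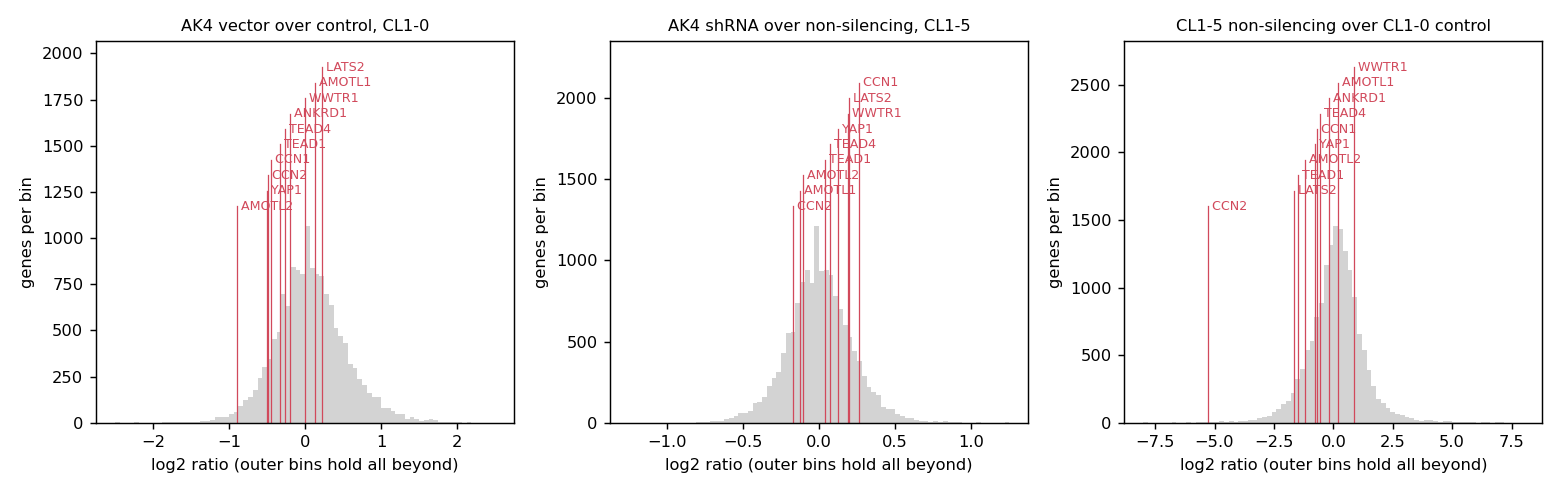
Histograms of the log2 ratios of all measured genes in the 3 comparisons (grey), with the members marked by red lines at the ratio of the probe set read for each; the heights of the red lines only separate the names, and the horizontal scales differ. The members lie within the bulk in CL1-5, mostly left of 0 in CL1-0 (AMOTL2 at -0.89), and CCN2 lies far outside the bulk between the lines at -5.27.

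Genes with profiles most like CCN1 and CCN2 were sought by the Euclidean distance between log2 levels, centred on each gene's mean over the 4 arrays, among 12797 genes. The nearest to CCN2 were RND3 at 0.37, DUSP6, a phosphatase of ERK, at 0.39 and TPD52L1 at 0.42. RND3 had 34.2 and 37.4 in CL1-5 with AK4 shRNA and non-silencing shRNA, and 772 and 1241 in CL1-0 with AK4 vector and control vector. The nearest to CCN1 were the dim genes LILRA5 (0.05) and ADGRG3 (0.06), and MAPK8IP2 (0.07), a scaffold of the JNK pathway. Among the members, YAP1 was the nearest to CCN1, at a distance of 0.18 and rank 87 of all genes, followed by TEAD4 at 0.21 and rank 142, while CCN2 was at 4.81. With 4 arrays, these distances are descriptions.

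The wider Hippo pathway was read from lists of upstream regulators, TEAD cofactors, CCN relatives and further YAP targets. With AK4 vector in CL1-0, 1 of 18 measured Hippo regulators was at least 2-fold higher, LIMD1, a LIM protein that binds LATS kinases, at 1.28, and 0 were at least 2-fold lower, against 3.22% and 1.17% of all genes. The LIMD1 value rests on 222762_x_at, and 234687_x_at was at 0.37. The median of that list was -0.28, with 13 of 18 below 0, beside a median of 0.05 and 43.9% below 0 over all genes. None of 5 TEAD factors and cofactors passed 2-fold, the largest being VGLL4, a competitor of YAP for TEAD, at -0.83 and TEAD3 at -0.38. Of 16 further YAP targets, 2 passed 2-fold downwards and 1 upwards, against 1.17% and 3.22% of all genes, and the list's median was -0.04. THBS1, a matricellular protein, had 40.2 with AK4 vector and 134 with control vector, a ratio of -1.73. The stress gene GADD45A had 1492 with AK4 vector and 3754 with control vector, a ratio of -1.33. BIRC5, which also serves in mitosis, had 363 with AK4 vector and 129 with control vector, a ratio of 1.49.

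With AK4 shRNA in CL1-5, 0 of these genes passed 2-fold. The Hippo regulators had a median of 0.18 over 17 genes, with LIMD1 at 0.52 (-0.45 on 218850_s_at) and LATS1 at 0.40. Among the TEAD factors and cofactors TEAD3 was at 0.58 and VGLL1 at -0.22. The further YAP targets had a median of 0.05 over 16 genes, with CCDC80 at 0.49 and DOCK5 at 0.45. Of the other CCN proteins, CCN5 was at -0.13 and CCN4 at 0.10, both with signals of at most 8.05, and in CL1-0 only CCN5 was measured, with identical deposited values on both arrays, so that its ratio of 0.02 is the scaling alone.

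Between the lines the further YAP targets lay on both sides of 0. Of 17 measured, 8 passed 2-fold upwards in CL1-5 and 2 downwards, against 17.1% and 14.2% of all genes, and the list's median was 0.96. Without rescaling, 7223 of all genes passed upwards and 771 downwards, against 2734 and 2272 here. F3, the coagulation receptor tissue factor, had 691 in CL1-5 and 7.63 in CL1-0, a ratio of 6.50. The CL1-0 value of F3 lay just above the floor, so the size of its ratio is uncertain. NT5E, an ectonucleotidase, had 482 in CL1-5 and lay under the floor in CL1-0, so it was at least 69.4-fold higher on 203939_at, and 7.53-fold higher on 1553994_at, which lay above the floor in both. The receptor tyrosine kinase AXL had 465 in CL1-5 and 14.4 in CL1-0, a ratio of 5.02. Its other probe set 202685_s_at was at 2.83, with the CL1-0 control under the floor. IGFBP3 had 108 in CL1-5 and 9.03 in CL1-0, near the floor, a ratio of 3.58, and 2.47 on 212143_s_at. The 2 lower genes were GADD45A at -1.27 and, named after its value was seen, RBMS3, which was at least 11.9-fold lower on 238447_at and 2.22-fold lower on 206767_at.

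Of 18 Hippo regulators, 4 passed 2-fold upwards and 4 downwards in CL1-5, against 17.1% and 14.2% of all genes, and the list's median was -0.19. NF2, the membrane scaffold merlin, had 378 in CL1-5 and 63.6 in CL1-0, a ratio of 2.57. The Hippo kinase STK4 had 111 in CL1-5 and 509 in CL1-0, a ratio of -2.20, whereas its dim probe set 205411_at was at 1.24. AJUBA, a LIM protein that inhibits LATS kinases, had 179 and 628 in the same order, a ratio of -1.81 that 1553764_a_at, at -0.11, did not share. TAOK1, a kinase upstream of STK4, lay under the floor in CL1-5 on 224769_at and had 471 in CL1-0, at least 67.8-fold lower. Its dim probe set 216310_at was above the floor in both and at 1.49. Of the TEAD cofactors, VGLL3 lay under the floor in CL1-5 and had 242 in CL1-0, at least 34.8-fold lower. VGLL4 was at -1.17 on 212399_s_at, whereas 214004_s_at, at -0.42, did not pass 2-fold. CCN3 had 21.2 in CL1-5 and lay under the floor in CL1-0, at least 3.06-fold higher.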

How the data were processed

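The deposited values were linear intensities for each probe set. MAS5 is named, per the submitters' processing notes, with version and scaling not given in the sources used here. The authors' columns had medians of 15.3 and 15.6 for CL1-5 with AK4 shRNA and non-silencing shRNA, and of 6.23 and 6.07 for CL1-0 with AK4 vector and control vector, so they did not share a scale.

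Each array was divided by its trimmed mean (2% removed at each end, 62 control probe sets left out), and log2 was taken after raising values under 6.94, their 40th percentile, to that floor. Symbols came from the platform annotation, updated through gene identifiers for 99.9% of probe sets with 1 symbol. The probe set with the highest mean log2 level stood for its gene, and a gene was measured if either array of the pair exceeded the floor. No test was run, with 1 array per group. Named genes were the 10 members, AK4, the 4 largest members past 2-fold of each further list (the 2 largest where none passed) and the 3 genes nearest to CCN1 and to CCN2. The members and lists were chosen with earlier results of these data known. In all, 9 alternatives were tried. Python 3.11.15, pandas 2.3.3, numpy 2.4.6 and statsmodels 0.14.6 were used.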

Additional observations from a re-analysis of the deposited data

Results flagged for a closer look

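CCN1 was lower with AK4 vector in CL1-0 and higher with AK4 shRNA in CL1-5. The labels name opposite manipulations of AK4, so the opposite signs do not by themselves mean that the lines differ. Both ratios were larger than the scatter between probe sets of a gene, which is not a replicate error. For CCN1 on 201289_at, 11.1% of all genes had a lower ratio in CL1-0 and 10.4% a higher one in CL1-5. On 201289_at the log2 ratio was -0.45 for AK4 vector over control vector in CL1-0 and 0.26 for AK4 shRNA over non-silencing shRNA in CL1-5, a difference of -0.71. On 210764_s_at it was -1.26 in CL1-0 and 0.42 in CL1-5, a difference of -1.69. With 1 array per group the difference was not tested.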

How the results depend on the processing

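No paired analysis was possible because each group held 1 array. Over the 9 alternatives, the counts of members past 2-fold stayed at 0 in both directions for AK4 vector in CL1-0 and for AK4 shRNA in CL1-5. The members' median in CL1-5, 0.07, was -0.07 when averaged over probe sets, and that between the lines, -0.72, was 0.11 without rescaling. Between the lines, members at least 2-fold lower in CL1-5 numbered 4, but 7 with arrays scaled to a common median and 1 without rescaling. Members at least 2-fold higher numbered 0, but 2 without rescaling and 1 after loess. These scalings also moved the median of all genes, from 0.13 to -0.30 with the common median and 0.83 without rescaling, and relative to it the members' median was -0.85, -0.90 and -0.73 in that order. CCN2 lay between -5.76 and -4.40 throughout. Averaged over probe sets, WWTR1 moved to -0.91 for AK4 vector, LATS2 and TEAD1 to -0.08 and -0.22 for AK4 shRNA, and LATS2 to -0.50 between the lines. CCN1, YAP1 and TEAD4 changed sign between the lines without rescaling, to 0.20, 0.11 and 0.30.

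Counts over all genes that moved by over 1.5 times were, for AK4 vector, 473 higher against 172 with pseudocount 16 and 247 averaged over probe sets, and 171 lower against 87 with pseudocount 16. For AK4 shRNA they were 14 higher against 4 and 5 under these settings, and 2 lower against 1 averaged over probe sets or leaving out those named _x_at or _s_at. Between the lines they were 2734 higher against 1424 (common median), 7223 (no rescaling), 1763 (floor at the 60th percentile) and 1379 (pseudocount 16), and 2272 lower against 3902 (common median), 771 (no rescaling) and 1364 (averaged over probe sets). The share of higher genes among those past 2-fold was 73.4% for AK4 vector and 62.4% after loess, and between the lines 54.6%, but 42.9% by quantiles, 26.7% with the common median and 90.4% without rescaling. Signals under the floor and the number of arrays limit what can be read.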

Other observations

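The TAOK1 signal was examined on all 6 probe sets, a choice made after its value was seen. Probe set 224769_at had 3.51 and 3.36 in CL1-5 with AK4 shRNA and non-silencing shRNA, and 530 and 471 in CL1-0 with AK4 vector and control vector. Probe set 224778_s_at had 2.67 and 2.70 in CL1-5 and 166 and 209 in CL1-0, in the same order. Probe set 216310_at ran the other way, with 33.6 and 35.6 in CL1-5 and 24.4 and 12.7 in CL1-0, and the remaining 3 lay under the floor in CL1-5.

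THBS1 was read by 7 probe sets, of which 201109_s_at had the lowest ratio with AK4 vector, 11.8 against 47.0 with control vector, a log2 ratio of -1.99. In CL1-5 the same probe set had 197 with AK4 shRNA and 230 with non-silencing shRNA, a ratio of -0.23, while 201110_s_at was at 0.06.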
